A study of Mus musculus with 12 samples.

Results

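The mRNA levels of 10 genes of hepatic glucose production and amino acid breakdown were followed over the day in mouse liver. The genes were chosen by name as fasting-induced enzymes and their regulators. They are *Pcx*, *Pck1*, *Fbp1*, *G6pc* and *Slc37a4* of gluconeogenesis, *Tat*, *Sds* and *Got1* of amino acid breakdown, and the regulators *Ppargc1a* and *Creb3l3*. All 10 were found among the 20069 genes of the expression table. The livers came from wild-type male C57BL/6 mice of 3 to 6 months, without a transgene or drug. The mice had lived for at least 2 weeks in cycles of 12 hr of light and 12 hr of darkness. RNA-Seq was made every 4 hr from ZT2 to ZT22, where ZT (zeitgeber time) counts the hours since lights came on, in 2 independent series. Each time point thus has 1 sample per series (n = 2, 12 samples in all), and whether a sample is 1 mouse or a pool is not stated. The p-values measure the spread between these samples.

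Between meals the liver keeps blood glucose up by making glucose from lactate, glycerol and amino acids. Pyruvate is carboxylated in the mitochondrion, turned into phosphoenolpyruvate in the cytosol, and carried back along the glycolytic path to glucose-6-phosphate, which is freed of its phosphate in the endoplasmic reticulum. Transaminases and dehydratases feed carbon from amino acids into this path. Glucagon, acting through cAMP, and glucocorticoids raise the transcription of several of these genes, and insulin lowers it. Laboratory mice eat mostly in the dark phase, so the light phase holds most of their daily fast.

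Signals are given in reads per base pair (rpbp), the mean coverage of a gene's exons scaled to 40000000 uniquely mapped sequences. They are already per length, so that levels of different genes can be set side by side. The signals of a library summed to between 1487470 and 1546120 rpbp over all genes. Coverage is not a count of reads, so no counting interval is given. Libraries of the same time point had a Pearson's r of 0.975 to 0.987 across expressed genes. The ZT2 libraries stood apart, with a median r of 0.942 and 0.945 with the libraries of other times, against 0.960 to 0.971 for the others. Markers of hepatocytes (5 of 5 expressed, *Alb*, *Ttr*, *Apoa1*, *Apob* and *Serpina1a*) summed to 84044 and 86868 rpbp at ZT2 and to 122942 to 155974 rpbp elsewhere. Markers of Kupffer cells (4 of 5 expressed) summed to 536 and 540 rpbp at ZT2 and to 258 to 429 rpbp elsewhere. Lymphocyte markers were below the expression minimum (0 of 3 expressed). Calls on the 10 genes and counts over gene lists are therefore given with and without the ZT2 libraries, a choice made after seeing the data, and the part of marker levels in the results was not tested. In whole liver, fewer cells of a type and less RNA per cell cannot be told apart.

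The promoters of 3 genes are shown because these genes carry the patterns described below, a shared low at ZT6 in *Pck1* and *G6pc* and the strongest daily rhythm in *Slc37a4*. The sequences are RefSeq's, build GRCm38.p6, and run 5′ to 3′ from 250 bases before to 50 bases after the transcription start. *Pck1* lies at chr2:173152823-173153122, *G6pc* at chr11:101367466-101367765 and *Slc37a4* at chr9:44396696-44396995, all on the plus strand. Capitals mark matches on either strand to the CRE half-site (TGACG or CGTCA), bound by CREB family factors, and to the nuclear receptor half-site (AGGTCA or TGACCT).
Pck1: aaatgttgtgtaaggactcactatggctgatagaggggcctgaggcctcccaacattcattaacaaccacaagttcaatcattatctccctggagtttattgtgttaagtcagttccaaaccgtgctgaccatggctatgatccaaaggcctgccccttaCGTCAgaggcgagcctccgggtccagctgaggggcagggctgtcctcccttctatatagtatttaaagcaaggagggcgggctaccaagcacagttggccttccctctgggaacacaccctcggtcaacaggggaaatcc
G6pc: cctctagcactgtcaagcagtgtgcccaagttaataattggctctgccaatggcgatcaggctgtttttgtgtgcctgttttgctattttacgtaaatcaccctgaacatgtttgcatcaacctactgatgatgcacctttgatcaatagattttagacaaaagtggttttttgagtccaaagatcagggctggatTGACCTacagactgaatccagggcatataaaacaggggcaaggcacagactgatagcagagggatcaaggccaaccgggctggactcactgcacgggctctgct
Slc37a4: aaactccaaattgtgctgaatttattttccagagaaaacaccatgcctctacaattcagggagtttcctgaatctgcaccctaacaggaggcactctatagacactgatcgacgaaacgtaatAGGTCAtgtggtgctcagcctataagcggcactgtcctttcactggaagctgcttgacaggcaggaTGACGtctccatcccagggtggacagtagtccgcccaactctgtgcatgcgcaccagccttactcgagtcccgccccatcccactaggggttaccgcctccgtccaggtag

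Of the 10 genes, 9 had 13 promoters in the RefSeq table. The CRE half-site was found in 5 of the 13 promoters, those of *Pck1*, *Ppargc1a*, *Creb3l3* (1 promoter each) and *Slc37a4* (2 promoters that share bases), and in 20.8% of the 32851 mouse promoters of the same length. The nuclear receptor half-site was found in 5 of the 13, 1 promoter each of *G6pc*, *Pcx*, *Slc37a4*, *Got1* and *Creb3l3*, and in 16.3% of all promoters. The E-box CACGTG, the site of CLK:BMAL1, was found in 1 of the 13, a promoter of *Pcx* and in 7.15% of all promoters. The D-box letters TTATGTAA or TTACATAA (0.938% of all promoters) and the forkhead letters TGTTTAC or GTAAACA (3.65%) were found in none of the 13. Other spellings of these sites were not searched. The *G6pc* promoter shown holds TTACGTAA, which differs from TTATGTAA by 1 letter. By these letters, *Pck1* has the CRE half-site without the nuclear receptor half-site, *G6pc* has the reverse, and the *Slc37a4* promoter shown has both. Another *Slc37a4* promoter has the CRE half-site alone, and a further one has neither. TGACG and TGACCT share the letters TGAC, and no start position can match both. All motifs were searched on both strands, and a match of letters is not a measured binding site.

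The mean levels over the 12 samples differed widely among the genes. *Fbp1* was highest at 1767 rpbp, followed by *Tat* (1155 rpbp), *Pck1* (701 rpbp), *G6pc* (495 rpbp), *Creb3l3* (326 rpbp) and *Pcx* (308 rpbp). *Sds* (201 rpbp), *Got1* (189 rpbp) and *Slc37a4* (164 rpbp) came next. *Ppargc1a* had a mean of 4.25 rpbp and did not reach the expression minimum of 8 rpbp in any sample, so that 9 of the 10 genes entered the tests, along with 10198 genes in all.

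**Figure D1:**
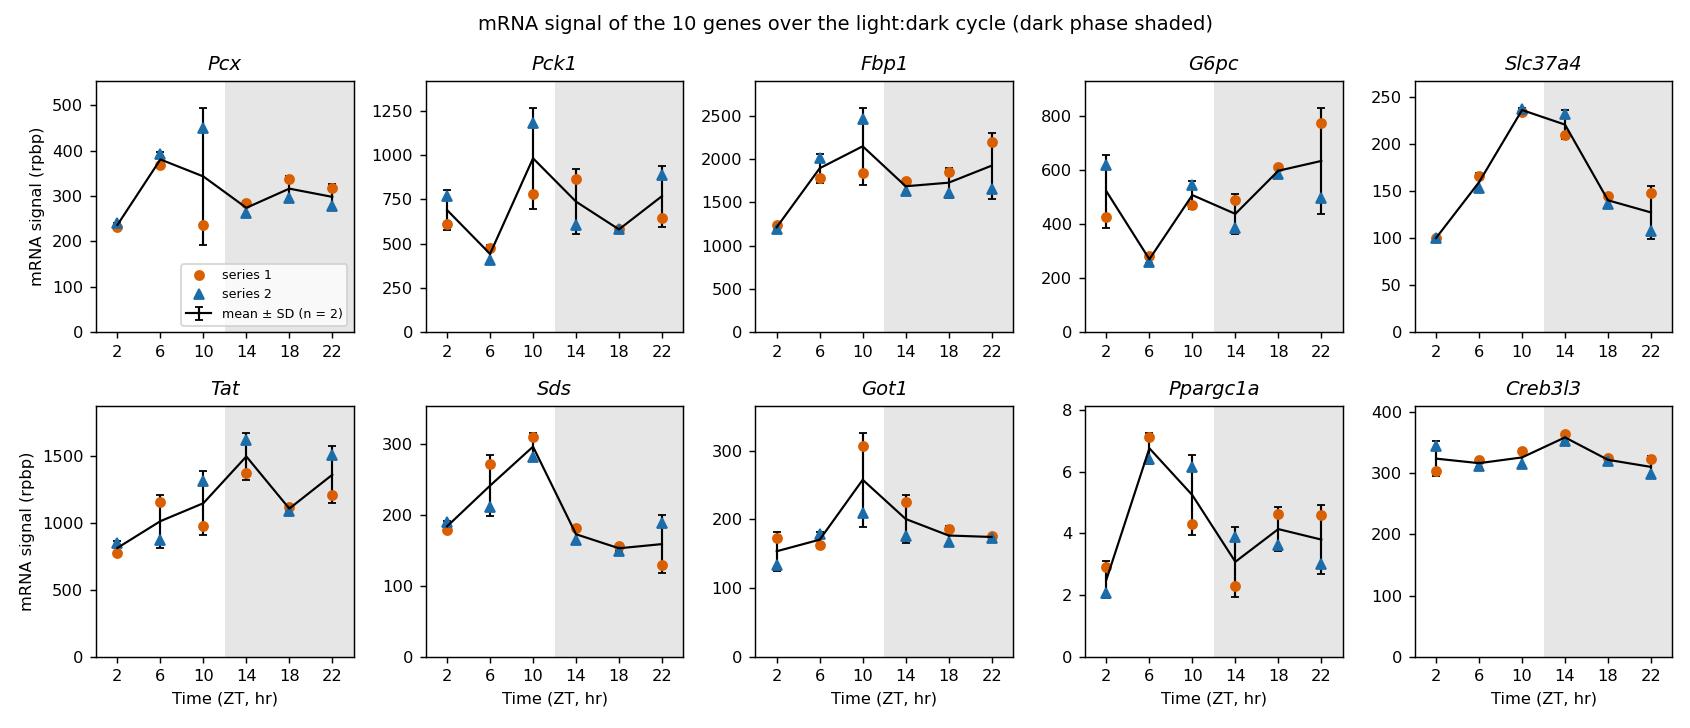
mRNA signal in rpbp (vertical axis, from 0) against time in ZT hours for each of the 10 genes, with circles for series 1, triangles for series 2, and a line with bars for the mean ± SD of both (n = 2). The values of *Pck1* and *G6pc* are lowest at ZT6, those of *Slc37a4* and *Sds* are highest at ZT10, and *Creb3l3* stays between 298 and 364 rpbp.

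Daily rhythms were found for *Slc37a4* and *Sds*, and the classic gluconeogenic enzymes did not pass as 24 hr rhythms. Rhythmicity was scored by F24, the share of a gene's variance over the 12 values that a 24 hr cosine takes up. A gene was called rhythmic with an F24 above 0.45, a highest value over 1.5 times the lowest, and a permutation p below 0.05. Of the 9 genes tested, 2 were called rhythmic, beside 19.0% of all expressed genes, and both also met the study's higher limits for a strong rhythm, beside 7.89%. Both passed with the p adjusted over all expressed genes too, beside 5.02%. With 1 library left out, the adjusted p stayed below 0.05 for *Slc37a4* (up to 0.0451), but for *Sds* it did so only without ZT6 of series 2 (0.0399) and otherwise lay between 0.0507 and 0.101. *G6pc* (F24 0.440, permutation p = 0.0727) and *Got1* (F24 0.414, permutation p = 0.0425) lay just outside. *Tat* followed at 0.397 and *Creb3l3* at 0.331, and *Fbp1* (0.173), *Pcx* (0.128) and *Pck1* (0.0735) were lowest. These 3 low values varied with single libraries. None of the 3 genes was called rhythmic in any of the 12 fits that left out 1 library. *Fbp1* reached 0.447 without ZT22 of series 1 and 0.0781 without ZT10 of series 2, *Pcx* 0.336 without ZT10 of series 1 and 0.022 without ZT10 of series 2, and *Pck1* 0.171 without ZT22 of series 2 and 0.0371 without ZT14 of series 1. In a single series they reached 0.543 for *Fbp1* and 0.566 for *Pcx* (series 2) and 0.475 for *Pck1* (series 1), with exact permutation p of 0.267, 0.35 and 0.383. The median F24 was 0.397 for the 9 genes and 0.310 for all expressed genes, and the median amplitude 2.29 and 1.64.

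**Figure D2:**
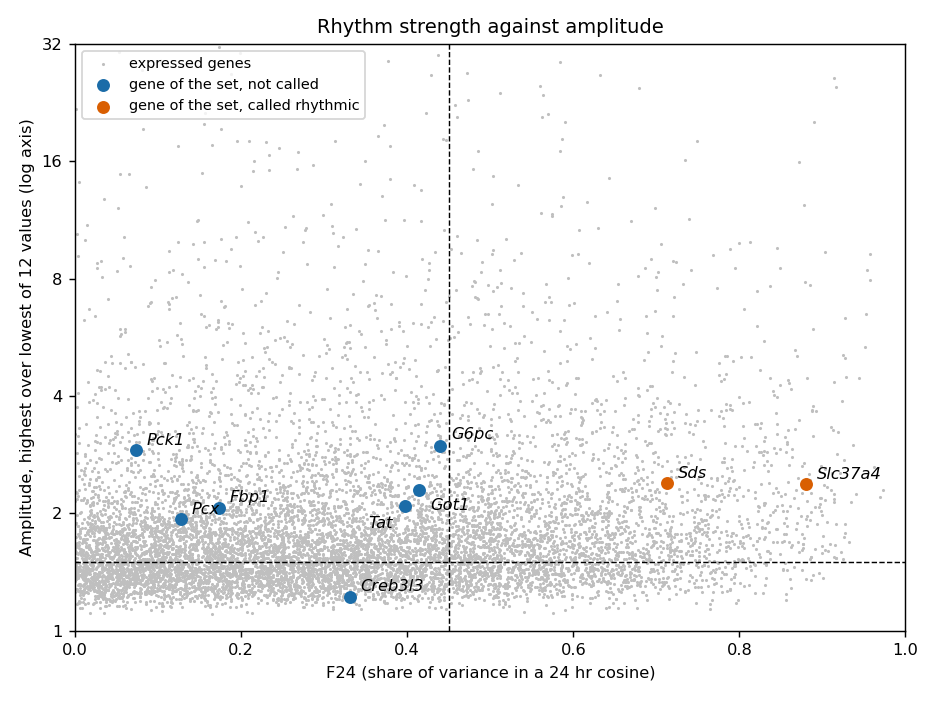
F24 (horizontal axis, a share from 0 to 1) against amplitude, the highest over the lowest of 12 values (vertical axis, log scale), for the 9 genes tested (large points) over the expressed genes (grey). Dashed lines mark 0.45 and 1.5, and 156 genes with an amplitude above 32 or a lowest value of 0 are not drawn; *Sds* and *Slc37a4* lie at 0.713 and 0.880, *G6pc* at 0.440 just short of the limit, and *Pck1* has an amplitude of 2.91 with an F24 of 0.0735.

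A separate test asked whether the 6 time points differed in any pattern (F-test of limma on log2(rpbp + 1), adjusted over all expressed genes). It called *Slc37a4* (adjusted p = 0.0019), *Sds* (0.0178), *G6pc* (0.0304) and *Tat* (0.0496), 4 of 9 genes beside 20.4% of all genes. *Fbp1* (0.0576) and *Pck1* (0.0664) missed the threshold, as did *Got1* (0.132), *Pcx* (0.288) and *Creb3l3* (0.472). Without ZT2, *G6pc* (adjusted p = 0.0394), *Sds* (0.0443) and *Slc37a4* (0.0238) were called and *Tat* was not (0.256). The call of *Tat* was lost in 9 of the 12 fits that left out 1 library, all but those without ZT10 of either series or ZT22 of series 1, with an adjusted p of up to 0.171.

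*Pcx* encodes pyruvate carboxylase, the mitochondrial entry step, and lies at chr19:4510472-4621752 (mm9, plus strand). In series 1 its signal was 233, 370, 236, 285, 337 and 319 rpbp from ZT2 to ZT22, and in series 2 it was 240, 392, 450, 264, 296 and 278 rpbp. Both ZT2 samples were low and both ZT6 samples high, and the ZT10 samples were far apart, with the highest value of all in series 2 and a near-lowest one in series 1. The ZT10 sample of series 2, which also held the highest *Pck1* and *Fbp1* values, had the most red blood cell marker signal (*Hbb-b1* and *Alas2*, 857 rpbp in sum against 295 to 584 rpbp in the 11 other samples), whose part in these values was not tested. The highest mean was at ZT6 (381 ± 15.8 rpbp) and the lowest at ZT2 (236 ± 5.37 rpbp). The time-point test depended on this pair, with an adjusted p of 0.00882 without ZT10 of series 1 and 0.0175 without ZT10 of series 2.

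*Pck1* encodes the cytosolic phosphoenolpyruvate carboxykinase, the step long used as a readout of the fasted state (chr2:172978549-172984774, mm9, plus strand). Its signal was 610, 478, 782, 868, 581 and 647 rpbp from ZT2 to ZT22 in series 1, and 771, 407, 1184, 608, 581 and 891 rpbp in series 2. The ZT6 samples were below the 10 others, which began at 581 rpbp, while the highest sample was at ZT14 in series 1 and at ZT10 in series 2. The mean at ZT10 (983 ± 285 rpbp) was 2.22 times that at ZT6 (442 ± 50.2 rpbp). A 12 hr component took up 0.540 of the variance of *Pck1*, higher than in 92.0% of expressed genes, whose median was 0.202. Leaving out the ZT10 sample of series 1 brought the time-point test to an adjusted p of 0.0368. Adipocytes also express *Pck1*, and the adipocyte markers present (*Adipoq* and *Cfd*) summed to 32.7 rpbp in the ZT10 sample of series 2, where *Pck1* was highest, and to 25.1 rpbp in the ZT6 sample of series 2, where it was lowest.

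*Fbp1* encodes fructose bisphosphatase, which opposes glycolysis at phosphofructokinase (chr13:62966113-62989642, mm9, minus strand). Its signal was 1235, 1779, 1836, 1743, 1852 and 2196 rpbp from ZT2 to ZT22 in series 1, and 1192, 2014, 2464, 1632, 1606 and 1655 rpbp in series 2. Both ZT2 samples were below all others, and from ZT6 on the series peaked at different times, ZT22 and ZT10. The time-point test missed its threshold with all samples and without ZT2 (adjusted p = 0.585). It passed with size factors by the median of ratios (0.0396) and without ZT10 of series 1 (0.0302), ZT22 of series 1 (0.0419) or ZT22 of series 2 (0.0324).

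*G6pc* encodes the catalytic subunit of glucose-6-phosphatase, the last step to free glucose (chr11:101228875-101239217, mm9, plus strand). Its signal was 426, 280, 470, 490, 610 and 773 rpbp from ZT2 to ZT22 in series 1, and 618, 260, 545, 386, 586 and 495 rpbp in series 2. As for *Pck1*, both ZT6 samples lay below all 10 others, here starting at 386 rpbp. The mean at ZT22 (634 ± 196 rpbp) was 2.35 times that at ZT6 (270 ± 14.6 rpbp). The time-point call was lost without either ZT6 library (adjusted p = 0.114 and 0.143) and without either ZT18 library (0.0562 and 0.0545). *G6pc* passed the limits for a rhythm when the ZT10 sample of series 2 was left out (F24 0.582, permutation p = 0.0315, adjusted p = 0.179).

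*Slc37a4* encodes the transporter that brings glucose-6-phosphate to the phosphatase in the endoplasmic reticulum (chr9:44205182-44211046, mm9, plus strand). Its signal was 99.9, 166, 234, 209, 144 and 147 rpbp from ZT2 to ZT22 in series 1, and 100.1, 153, 237, 231, 136 and 107 rpbp in series 2. The values climbed from ZT2 to ZT10 and came down after ZT14 in both series, and the ZT10 samples were above and the ZT2 samples below all others. The mean at ZT10 (236 ± 2.23 rpbp) was 2.36 times that at ZT2, where the SD was 0.17 rpbp. F24 was 0.880 (permutation p = 0.00049, adjusted p = 0.0217), with a phase of 11.7 hr, just before lights off. The phases of the series taken alone were 11.8 and 11.7 hr, with F24 of 0.826 and 0.950, although neither series alone had a p below the threshold (p = 0.133 and 0.05 from an exact permutation test over all 720 orders). Without ZT2, F24 was 0.837 (permutation p = 0.00688, adjusted p = 0.0959). The fitted phase of its partner enzyme *G6pc* was 19.8 hr, but *G6pc* was not called rhythmic (F24 0.440), so this is no established peak time. The correlation of the pair over the 12 samples was −0.17.

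*Tat* encodes tyrosine aminotransferase, a glucocorticoid-inducible enzyme that starts the breakdown of tyrosine (chr8:112514337-112523703, mm9, plus strand). Its signal was 776, 1153, 979, 1370, 1122 and 1209 rpbp from ZT2 to ZT22 in series 1, and 850, 872, 1314, 1622, 1091 and 1509 rpbp in series 2. The highest sample was at ZT14 and the lowest at ZT2 in both series. Both ZT2 samples were below all others. The lowest mean was 813 ± 52.6 rpbp and the highest 1496 ± 178 rpbp, with a second high of 1359 ± 212 rpbp at ZT22. *Tat* passed the limits for a rhythm when ZT22 of series 2 was left out (F24 0.572, permutation p = 0.0342, adjusted p = 0.18).

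*Sds* encodes serine dehydratase, which turns serine into pyruvate (chr5:120926540-120933941, mm9, plus strand). Its signal was 178, 272, 311, 182, 156 and 130 rpbp from ZT2 to ZT22 in series 1, and 190, 211, 283, 164, 150 and 188 rpbp in series 2. The ZT10 samples were above all others in both series, and the ZT6 samples came next. The mean at ZT10 (297 ± 19.9 rpbp) was 1.94 times that at ZT18 (153 ± 4.5 rpbp). F24 was 0.713 (permutation p = 0.00203, adjusted p = 0.0421) with a phase of 8.26 hr, in the second part of the light phase. It was 0.899 in series 1 alone (exact permutation p = 0.0167, the smallest that 720 orders of 6 equally spaced values gave here) and 0.556 in series 2 alone (exact permutation p = 0.317). Without ZT2, F24 was 0.727 (permutation p = 0.0154, adjusted p = 0.134). The time-point call was lost without ZT10 of series 1 (adjusted p = 0.057). In the mm9 annotation the exons of *Sds* share 360 bases with *Plbd2* and 141 bases with *Gm15690*, both on the opposite strand, and coverage was summed without regard to strand, so that reads of these genes cannot be told apart there.

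*Got1* encodes the cytosolic aspartate aminotransferase of the malate-aspartate shuttle (chr19:43574242-43599095, mm9, minus strand). Its signal was 174, 162, 306, 226, 186 and 176 rpbp from ZT2 to ZT22 in series 1, and 134, 179, 209, 176, 167 and 173 rpbp in series 2. ZT10 was the highest time in both series, by a wide margin in series 1, and the mean was 258 ± 68.7 rpbp then and lowest at ZT2 (154 ± 28.2 rpbp). With the mean of each series removed, F24 rose past the limit (0.486, permutation p = 0.028, adjusted p = 0.128). It also passed the limits without ZT6 of series 1 (0.455, permutation p = 0.0391, adjusted p = 0.182) and without ZT14 of series 2 (0.533, permutation p = 0.00938, adjusted p = 0.106). The phases of the series taken alone, 11.6 and 11.5 hr, lay close to those of *Slc37a4*.

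The coactivator gene *Ppargc1a*, known to be induced by cAMP in fasted liver, lies at chr5:51845488-51958964 (mm9, minus strand). Its signal was 2.92, 7.12, 4.32, 2.28, 4.64 and 4.6 rpbp from ZT2 to ZT22 in series 1, and 2.08, 6.40, 6.16, 3.88, 3.64 and 3.00 rpbp in series 2. The ZT6 samples were above all others, at the time when *Pck1* and *G6pc* were at their lowest. These low values are given as a description, and no test was made.

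*Creb3l3* encodes CREBH, a liver transcription factor held in the endoplasmic reticulum membrane and released by cleavage (chr10:80547069-80561619, mm9, minus strand). Its signal was 303, 321, 335, 364, 324 and 322 rpbp from ZT2 to ZT22 in series 1, and 343, 311, 315, 352, 319 and 298 rpbp in series 2. The ZT14 samples were above the 10 others, by a small margin, and the coefficient of variation over the 12 samples was 6.04%, against 20.3% to 38.3% for the 9 other genes. Its amplitude of 1.22 lay under the limit for a rhythm in any case. F24 was 0.783 in series 1 and 0.0851 in series 2.

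The light phase (ZT2, ZT6 and ZT10, n = 6) was compared with the dark phase (ZT14, ZT18 and ZT22, n = 6). The labels record no feeding state for these samples, so the comparison is one of lighting phases and not of fasted and fed mice. Only *Sds* was higher in the light phase by limma, 1 of 9 genes beside 2.27% of all expressed genes (3.02% were lower, 5.30% changed in either direction). *Sds* spanned 178 to 311 rpbp with a median of 242 rpbp in the light phase, and 130 to 188 rpbp with a median of 160 rpbp in the dark phase. The ranges overlapped only between 178 and 188 rpbp. The difference was 0.55 on the log2 scale (SE 0.10, adjusted p = 0.0161), a 1.46-fold higher level, and 0.73 without ZT2 (adjusted p = 0.00915). It was called in each of the 12 fits that left out 1 library, with an adjusted p of up to 0.0499.

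*Tat* and *G6pc* leaned the other way without passing the test. *Tat* had a difference of −0.42 (SE 0.11, adjusted p = 0.0506), with a median of 925 rpbp in the light and 1289 rpbp in the dark phase. It passed without ZT6 of series 1 (adjusted p = 0.048), without ZT22 of series 1 (0.0492) and without ZT10 of series 2 (0.0326), and lay at −0.29 without ZT2 (0.163). *G6pc* had a difference of −0.40 (SE 0.13, adjusted p = 0.109), with medians of 448 and 540 rpbp. It passed without ZT2 (−0.56, adjusted p = 0.0322) and without ZT22 of series 2 (−0.51, adjusted p = 0.0466). *Pck1* had a difference of −0.05 with a 95% interval from −0.36 to 0.27. *Pcx*, *Fbp1*, *Slc37a4*, *Got1* and *Creb3l3* had differences between −0.06 and 0.06, and the median of the 9 genes was −0.03, against 0.02 for all expressed genes.

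The second comparison set the hours around lights off (ZT10 and ZT14, n = 4) against those around lights on (ZT22 and ZT2, n = 4), for genes that peak near dusk. *Slc37a4*, *Got1* and *Sds* were higher around dusk by limma, 3 of 9 genes beside 9.15% of all expressed genes (18.3% in either direction), and 0 were lower, beside 9.18%. *Slc37a4* was at 234, 237, 209 and 231 rpbp around dusk and at 147, 107, 99.9 and 100.1 rpbp around dawn, with no overlap. Its difference was 1.02 (SE 0.10, adjusted p = 0.000195), a 2.02-fold higher level, and 0.85 against ZT22 alone, without ZT2 (adjusted p = 0.00942). *Got1* was at 306, 209, 226 and 176 rpbp around dusk and at 176, 173, 174 and 134 rpbp around dawn, and the lowest dusk sample (176 rpbp) all but met the highest dawn sample. Its difference was 0.46 (SE 0.14, adjusted p = 0.0448), and 0.36 without ZT2 (0.258). *Sds* was at 311, 283, 182 and 164 rpbp around dusk and at 130, 188, 178 and 190 rpbp around dawn, so that only the ZT10 samples stood above the dawn range. Its difference was 0.41 (SE 0.12, adjusted p = 0.0433), and 0.53 without ZT2 (0.103). The calls of *Got1* and *Sds* were each lost in 9 of the 12 fits that left out 1 library, with an adjusted p of up to 0.143 and 0.124, while that of *Slc37a4* was kept in all 12. *Got1* kept its call only without ZT2 of series 1 or without ZT10 or ZT14 of series 2, and *Sds* only without ZT6 of either series or ZT22 of series 2.

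The summed signal of pericentral markers moved with this comparison. The pericentral markers *Glul*, *Cyp2e1*, *Cyp1a2* and *Oat* (4 of 4 expressed) summed to 17810, 15310, 13703 and 19784 rpbp around dusk and to 9730, 10966, 10385 and 10173 rpbp around dawn, with no overlap. The periportal markers *Cyp2f2*, *Hal*, *Ass1* and *Gls2* (4 of 4 expressed), from the zone where gluconeogenesis is known to be strongest, summed to 2836 to 3622 rpbp over all 12 samples. These sums do not show single genes, and 2 of the 4 markers in each list were called rhythmic. The periportal marker *Hal* was lower around dusk by limma (−0.68, SE 0.13, adjusted p = 0.00659). *Gls2*, also periportal, was not called (0.06, adjusted p = 0.785). The part of marker levels in the dusk-dawn differences was not tested.

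*Fbp1* (0.32, adjusted p = 0.0999), *Tat* (0.31, 0.127), *Pck1* (0.21, 0.424), *Pcx* (0.17, 0.510) and *Creb3l3* (0.11, 0.271) had differences above 0 that did not pass. *G6pc* was the one gene with a difference below 0 (−0.26, adjusted p = 0.284). In all, 8 of the 9 genes had a difference above 0, as had 45.1% of expressed genes, and the median was 0.31 against −0.03. The differences of *Fbp1* and *Tat* did not hold without the ZT2 libraries, which had the lowest signal of both genes (−0.01 and −0.06). *Fbp1* passed without ZT10 of series 1 (adjusted p = 0.039) or ZT22 of series 1 (0.0389), and *Pcx* without ZT10 of series 1 (0.014).

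**Figure D3:**
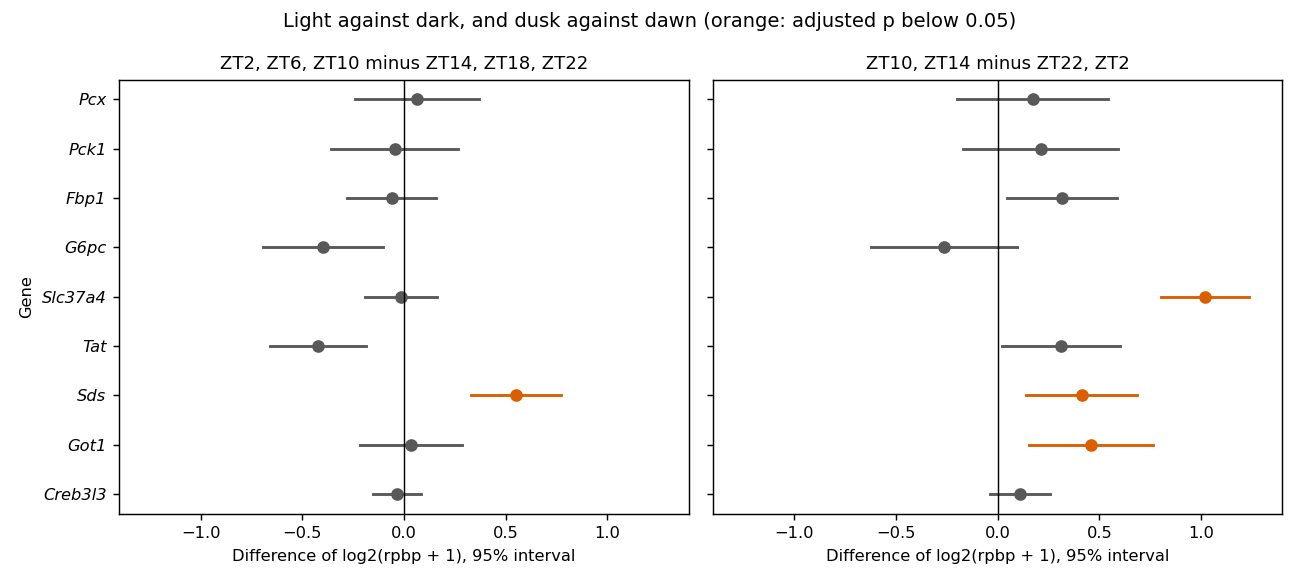
Differences of log2(rpbp + 1) with 95% intervals (horizontal axis) for the 9 genes tested, light minus dark phase on the left and dusk minus dawn on the right, with orange for an adjusted p below 0.05. *Sds* stands at 0.55 on the left, and *Slc37a4* (1.02), *Got1* (0.46) and *Sds* (0.41) on the right.

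The 10 profiles did not move as a block. Over the 12 samples, the 45 pairs of genes had Pearson's r between −0.47 and 0.78 with a median of 0.21, 7 pairs were above 0.5 and 13 below 0. These values are a description, since the samples share their time points and series. The highest were those of *Ppargc1a* with *Pcx* (0.78), *Pcx* with *Fbp1* (0.78), *Ppargc1a* with *Fbp1* (0.72) and *Got1* with *Slc37a4* (0.69). *Pck1* and *G6pc* were at 0.54, and *Ppargc1a* was at −0.37 and −0.45 with them. The lowest was that of *Sds* with *G6pc* (−0.47).

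**Figure D4:**
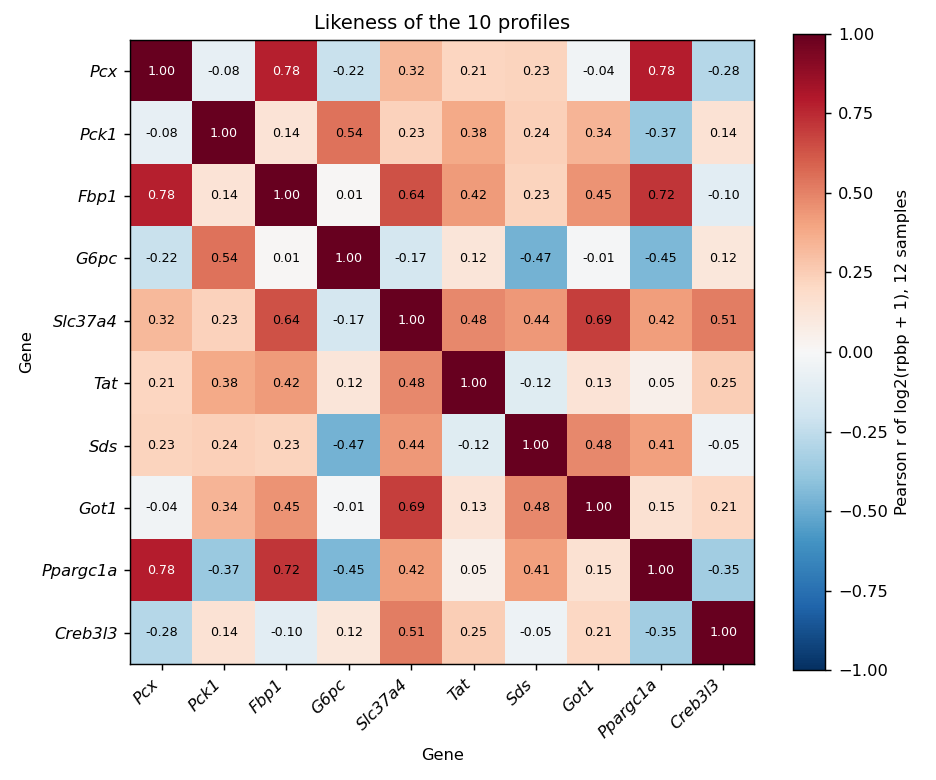
Pearson's r of log2(rpbp + 1) over the 12 samples for each pair of the 10 genes, in colour and in digits, with rows and columns in the order of the pathway and the regulators last. *Pcx*, *Fbp1* and *Ppargc1a* are alike (0.72 to 0.78), and *Pck1* and *G6pc* are more like one another (0.54) than like *Ppargc1a* (−0.37 and −0.45).

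The expressed gene with the most similar profile over the 12 samples is given for 9 of the 10 genes. *Slc37a4* was most like *St3gal5* (r = 0.97), *Pcx* like *Pex5* (0.96), *Ppargc1a* like *Abat* (0.94), *Got1* like a gene listed as *Cox2* (0.91) and *Tat* like *Acsl3* (0.91). *G6pc* was most like *Dennd1b* (0.89), *Sds* like *Mpp1* (0.87), *Creb3l3* like *Ero1l* (0.86) and *Pck1* like *Pwp1* (0.85). With 12 samples and 10198 genes, a high r can be found for any profile.

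Other genes of the pathway were taken from lists. Beside the counts that follow, 19.0% of all expressed genes were rhythmic (5.02% with the adjusted p), 9.15% were higher and 9.18% lower around dusk, and 2.27% were higher and 3.02% lower in the light phase. Without ZT2 these shares were 15.2% rhythmic, 2.39% and 2.35% for dusk, and 5.81% and 5.07% for light.

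Among 22 expressed genes of gluconeogenic and linked steps, 4 were called rhythmic (18.2%, or 2 genes with the adjusted p), and 9 were higher and 1 lower around dusk by limma. The lowest mean of 15 of the 22 genes (68.2%, beside 21.9% of all expressed genes) was at ZT2, where the libraries stood apart, and without ZT2 the dusk counts were 1 higher and 0 lower, and 3 genes were rhythmic. In the light phase 1 gene was higher and 0 were lower, against 7 and 0 without ZT2. The glycerol channel gene *Aqp9* peaked at ZT6 (652 ± 24.5 rpbp, phase 6.28 hr, F24 0.725), and it was the one gene of the list that was higher in the light phase with all samples (0.40, SE 0.05, adjusted p = 0.00249, and 0.53 with an adjusted p of 0.00171 without ZT2). The alanine aminotransferase gene *Gpt1* (F24 0.840, phase 11.6 hr) was higher around dusk by 0.71 (SE 0.08, adjusted p = 0.000344), and by 0.65 without ZT2 (0.00632). The pyruvate carrier gene *Brp44l*, also named *Mpc1*, was higher around dusk by 0.67 (SE 0.11, adjusted p = 0.00369), a call lost without ZT2 (0.55, adjusted p = 0.0705). The lactate dehydrogenase gene *Ldha* was the one that was lower around dusk (−0.60, SE 0.15, adjusted p = 0.0252), with a phase of 24.0 hr, and this call was lost without ZT2 too (−0.57, adjusted p = 0.163).

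Among 41 expressed genes of amino acid catabolism, 17 were called rhythmic (41.5%, or 6 genes with the adjusted p), 15 were higher and 8 lower around dusk, and 1 was higher and 2 lower in the light phase. The lowest mean of 26 of the 41 genes (63.4%, beside the same 21.9%) was at ZT2. Without ZT2, 11 were rhythmic (26.8%), 5 were higher and 4 lower around dusk, and 4 were higher and 1 lower in the light phase. The proline dehydrogenase gene *Prodh* had an F24 of 0.934 and a phase of 12.2 hr, and the ornithine aminotransferase gene *Oat* an F24 of 0.691 and a phase of 9.58 hr. *Prodh* was higher around dusk by 0.81 (SE 0.07, adjusted p = 0.000159), and by 0.71 without ZT2 (0.00456). *Oat* was higher by 0.94 (SE 0.11, adjusted p = 0.000696), and by 0.82 without ZT2 (0.0122), and it is itself one of the pericentral markers whose sum was higher around dusk than around dawn. Near the opposite time, *Cbs*, which makes cystathionine from homocysteine and serine, had a phase of 24.0 hr, *Amdhd1* of histidine breakdown one of 1.92 hr, and *Gldc* of the glycine cleavage system one of 20.9 hr. All 3 were lower around dusk, by −0.83 (SE 0.08, adjusted p = 0.000179), −0.77 (SE 0.09, 0.000696) and −0.69 (SE 0.09, 0.000959). Without ZT2 the differences were −0.84 for *Cbs* (adjusted p = 0.0042), −0.68 for *Amdhd1* (0.015) and −0.94 for *Gldc* (0.00459). *Sds*, which draws on serine as *Cbs* does, had its phase at 8.26 hr.

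Among 21 expressed regulators of the fasting response, 8 were called rhythmic (38.1%, or 2 genes with the adjusted p), 4 were higher and 1 lower around dusk, and 1 was higher and 1 lower in the light phase. Without ZT2, where 6 of the 21 genes (28.6%) had their lowest mean, 7 were rhythmic (33.3%), 1 was higher and 0 lower around dusk, and 4 were higher and 1 lower in the light phase. *Klf15*, a glucocorticoid-induced factor of amino acid breakdown, peaked at ZT10 (184 ± 7.16 rpbp) and was higher around dusk by 0.48 (SE 0.08, adjusted p = 0.00353), a call lost without ZT2 (0.34, adjusted p = 0.103). *Foxo1*, the insulin-inhibited forkhead factor, had a phase of 11.4 hr and was higher around dusk by 0.48 (SE 0.08, adjusted p = 0.00422), and this call was lost as well (0.43, adjusted p = 0.0547). The nuclear receptor gene *Esrra* was higher around dusk with ZT2 (0.34, SE 0.08, adjusted p = 0.0171) and without it (0.46, adjusted p = 0.0321). *Cebpa*, a factor of hepatocyte identity, was higher in the light phase by 0.26 (SE 0.06, adjusted p = 0.0322), and by 0.34 without ZT2 (0.02). *Snf1lk*, also named *Sik1*, a cAMP-induced kinase gene that restrains CREB coactivators, was lower in the light phase (−0.70, SE 0.14, adjusted p = 0.0218), also without ZT2 (−0.72, adjusted p = 0.0274). Its lowest mean, 7.28 ± 2.66 rpbp, was at ZT6, the time of the lowest *Pck1* and *G6pc*.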

How the data were processed

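Liver RNA-Seq libraries of 12 samples were analysed. The authors extracted bases with CASAVA 1.8, mapped them to mm9 with TopHat, and summed the coverage of unique sequences over the flattened exons of a gene without regard to strand. The deposited signal is this coverage per exon base, set by the authors to a library of 10000000 unique sequences. The deposited F24 fraction, phase and p-value are the authors' own rhythm scores and were not used. The columns headed ZT20 were taken as ZT22, the time in the labels.

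The signal was multiplied by 4, and genes above 8 rpbp in at least 1 sample were kept. F24 came from the 12 concatenated values, with 100000 random orders (seed 1) and the Benjamini-Hochberg adjustment over 10198 genes. Time points were compared with limma 3.58.1 (R 4.3.3, moderated with a trend) on log2(rpbp + 1), so a fold change of a low gene is understated. Light against dark and dusk against dawn were contrasts of the same fit. Signals are no counts, so no count test was used. Where ZT2 was left out, the contrasts used the remaining time points.

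Named were the 10 genes, from each pathway list up to 5 rhythmic genes with the smallest adjusted p in the time-point test, and for each of the 10 the expressed gene of highest Pearson's r. That of *Fbp1* is not reported here. The genes and lists were chosen with earlier results of these data known. Alternatives covered scale, pseudocount (0.1), minimum (16 rpbp or none), size factors, the test, the amplitude, a series block and leaving out samples. The tests were checked on simulated data with 24 hr cosines of known fold. At 1.5-fold the rhythm criteria called 32 of 50 changed genes and the limma time-point test 6 of 50. At 2-fold they called 45 and 32 of 50, so a gene that missed a threshold can still have a change of this size. Of 9998 unchanged genes they called 184 and 11. Gene places are those of GENCODE for mm9. Software was numpy 2.4.6, pandas 2.3.3, scipy 1.17.1 and matplotlib 3.10.9 under Python 3.11.15.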

Additional observations from a re-analysis of the deposited data

How the results depend on the processing

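Of 702 alternative values of single genes, 616 kept their direction and their side of the threshold, and 99 of 126 alternative counts stayed within 1.5 times the main count, at times with other genes. The cause of the changes was not tested. The 2 rhythmic genes, *Sds* and *Slc37a4*, were called under each scale, pseudocount, minimum, size factor, test and amplitude tried, without ZT2 and without any single library, by the unadjusted p. With 1 series left out, 0 or 1 were called, and with 1 library left out 2 or 3. Rhythmic pathway genes numbered 29, but 10 with the adjusted p and 17 with limma (6 to 29 with samples left out), and all genes 1942, but 512 and 875 (284 to 1980). The 4 time-point calls became 2 with no minimum (2 to 6 with a library left out). The single light-dark call became 2 with a minimum of 16 rpbp, which added *Tat*, and 2 without ZT2, which added *G6pc* (1 to 2). The 3 dusk-dawn calls became 1 with no minimum and 1 without ZT2 (1 to 3).

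Without ZT2, differences that had not passed changed sign for *Fbp1* in light minus dark (0.18) and dusk minus dawn (−0.0096), for *Tat* in dusk minus dawn (−0.055) and for *Slc37a4* in light minus dark (0.30). With a library left out, light minus dark changed sign for *Pck1* (−0.146 to 0.0536), *Fbp1* (−0.132 to 0.0097), *Pcx* (−0.0913 to 0.217), *Slc37a4* (−0.0904 to 0.062) and *Got1* (−0.0578 to 0.125), and dusk minus dawn for *Pcx* (−0.0589 to 0.404).

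The main tests did not pair samples by replicate number. Deviations from the time-point means correlated at −0.15 to 0.21 between same-numbered samples (15 pairs of time points, 2 above 0.1). These correlations cannot show whether a series was collected or handled together. With the replicate block, 3 genes were rhythmic (*Got1* added), 3 had a time-point difference (*Tat* at an adjusted p of 0.062), 2 a dusk-dawn difference (*Sds* at 0.0606) and 1 a light-dark difference. With 2 samples per time point, and coverage in place of counts, differences within the spread of a pair, as for *Pcx* at ZT10, could not be resolved.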

Other observations

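A 12 hr component took up 0.499 of the variance of *Ppargc1a*, 0.497 of that of *Fbp1*, 0.361 of that of *Pcx*, 0.320 of that of *Creb3l3* and 0.215 of that of *Got1*, beside a median of 0.202 over expressed genes. It took up less than that median in *G6pc* (0.165), *Sds* (0.138), *Tat* (0.0971) and *Slc37a4* (0.0703). The peaks of *Pcx* fell at ZT6 in series 1 and ZT10 in series 2, and those of *G6pc* at ZT22 and ZT2.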
